A study of Mus musculus with 26 samples.

Results

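Potassium channel genes were taken as the protein-coding genes of GENCODE M21 whose symbol starts with Kcn, which gave 94 of 21938 genes. For each gene, the peaks of 5 consensus lists were counted when their midpoint lay in the gene body or within 50 kb of it, a span called the window here. The lists describe TrkC neurons of mouse dorsal root ganglia (DRG) at E11.5 (embryonic day), and came from ATAC-seq (3 samples, 64227 peaks) and from CUT&RUN with antibodies to H3K27Ac (5 samples, 32655 peaks), Runx3 (8 samples, 13443 peaks), Brn3a (2 samples, 32823 peaks) and Isl1 (3 samples, 16035 peaks). ATAC-seq marks open chromatin, CUT&RUN cuts out DNA next to an antibody, and 5 further samples with normal rabbit serum served as controls for peak calling. Per the labels, cells were sorted by GFP from embryos with the BacE-GFP transgene, in which Runx3 regulatory DNA drives GFP, and the ganglia of several embryos were pooled per sample. The study's methods add 2 experiments in which an antibody to TrkC was used instead, on cells of GFP+ or WT mice, and the labels do not tell which samples these were. The labels name 1 stage and no treatment, so the comparisons below are between genes and between kinds of peak. The lists hold positions and a motif entry, with no value per sample. Depth is therefore unknown and no spread between replicates could be computed. Intervals of 95% (exact Poisson for rates, Wilson for shares) cover counting error only.

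Potassium channels let potassium leave or enter the cell and set the resting potential, the shape of the action potential and the firing pattern of a neuron. Most are assembled from pore subunits of several families, together with auxiliary subunits that change their gating or their transport to the membrane. In DRG neurons, Kv1 channels (Kcna genes) hold back repetitive firing, Kv3 channels (Kcnc) shorten action potentials, Kv7 channels (Kcnq) carry the M-current and two-pore channels (Kcnk) carry the leak current. Runx3, Brn3a and Isl1 are TFs of sensory neuron development. Runx3 binds the RUNX site (RBS), which reads ACCACA or ACCGCA when it starts with A and GCCACA or GCCGCA when it starts with G. Brn3a is a POU-domain protein with the motif family V$BRNF and Isl1 is a LIM-homeodomain protein with the family V$LHXF. Peaks that hold the motif of their own TF are called Runx3_RBS (9601 peaks), Brn3a_BRNF (23670 peaks on nuclear chromosomes) and Isl1_LHXF (11451 peaks).

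Marker genes were checked by peaks within 1 kb of their transcription start sites (TSS). H3K27Ac marked the promoters of 4 of 5 TrkC neuron markers (*Etv1*, Isl1, *Ntrk3* and Runx3) and 4 of 4 general neuronal markers. It also marked 2 of 5 markers of glia and neural crest, 2 of 4 of mesenchyme (*Col1a1* and *Pdgfra*), 1 of 3 of endothelium (*Kdr*) and 0 of 4 of blood. ATAC was at 5 of 5 TrkC neuron and 4 of 4 general neuronal markers. It was also at 3 of 5 of glia and neural crest, 4 of 4 of mesenchyme, 1 of 3 of endothelium and 0 of 4 of blood. Over all genes, 58.9% of promoters had H3K27Ac and 65.1% had ATAC. What part other cells had in the peaks at Kcn genes was not tested.

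Brn3a_BRNF peaks were denser at potassium channel genes than over the windows of all protein-coding genes, and H3K27Ac was not. The 94 windows covered 19.3 Mb after merging and held 244 Brn3a_BRNF peaks, or 12.7 per Mb (11.1 to 14.3), against 9.39 per Mb over all genes. The 115 Isl1_LHXF peaks gave 5.96 per Mb (4.92 to 7.16) against 4.80. The 114 Runx3_RBS peaks gave 5.91 per Mb (4.88 to 7.10) against 4.88, so the interval reached down to the rate of all genes. ATAC stood at 36.0 per Mb (33.4 to 38.8) against 32.6, and H3K27Ac at 17.8 per Mb (16.0 to 19.8) against 17.8.

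Counted by gene, every one of the 94 windows held an ATAC peak, against 87.7% of all genes, and 81 (86.2%, 77.8 to 91.7) held H3K27Ac, against 80.0%. A Brn3a_BRNF peak lay in 68 windows (72.3%, 62.6 to 80.4) against 48.2% of all genes. An Isl1_LHXF peak lay in 50 (53.2%, 43.2 to 63.0) against 33.7%, and a Runx3_RBS peak in 59 (62.8%, 52.7 to 71.9) against 52.3%. All 3 TFs had a peak with motif in 30 windows (31.9%, 23.4 to 41.9), against 19.2% of all genes. In 25 windows (26.6%, against 19.3%) Brn3a_BRNF or Isl1_LHXF occurred without Runx3_RBS. In 7 windows (7.45%, against 16.0%) Runx3_RBS occurred alone, and 10 windows (10.6%, against 28.4%) held none. Peaks were spread unevenly among the 94 genes, with 5 or more Brn3a_BRNF peaks at 16, 5 or more Isl1_LHXF peaks at 5 and 5 or more Runx3_RBS peaks at 4. The share of all genes with 5 or more peaks is not given, so this spread is not shown to be particular to Kcn genes.

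The length of a window bears on these counts. Windows had a median of 131 kb at Kcn genes, from 102 to 1235 kb, and of 117 kb over all genes. Under 150 kb, the 58 Kcn genes held 10.5 Runx3_RBS peaks per Mb (8.18 to 13.3) against 5.98 over all genes of that class, 10.7 Brn3a_BRNF peaks (8.31 to 13.5) against 6.50 and 6.50 Isl1_LHXF peaks (4.69 to 8.79) against 3.53. From 150 to 300 kb, the 18 Kcn genes held 4.22 Runx3_RBS peaks per Mb (2.36 to 6.96) against 5.66, 16.0 Brn3a_BRNF peaks (12.1 to 20.8) against 9.08 and 7.03 Isl1_LHXF peaks (4.55 to 10.4) against 4.99. Over 300 kb, the 18 Kcn genes held 3.39, 13.0 and 5.08 per Mb, against 3.57, 13.4 and 6.34 over all genes. For all 3 TFs the intervals lay above in the shortest class, for Brn3a_BRNF also in the middle one, and for none in the longest. ATAC was at 58.7 per Mb (52.9 to 64.9) at short Kcn windows against 39.1, and at 20.2 (17.5 to 23.3) at long ones against 24.1. The part of ATAC density in the TF counts was not tested.

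As shares of genes, Runx3_RBS was found at 35 of the 58 short windows (60.3% against 49.4% of all genes), 9 of 18 between 150 and 300 kb (50.0% against 60.2%) and 15 of 18 long ones (83.3% against 71.4%). Brn3a_BRNF was found at 36 (62.1% against 40.9%), 16 (88.9% against 67.8%) and 16 (88.9% against 93.0%). Isl1_LHXF was found at 26 (44.8% against 27.1%), 12 (66.7% against 49.0%) and 12 (66.7% against 83.2%). Across the 94 genes, the number of Brn3a_BRNF peaks rose with window length (Spearman's rho 0.45) and that of Runx3_RBS with the number of other protein-coding genes reaching into the window (rho 0.31), for which Brn3a_BRNF gave −0.20. These are descriptions, since 17 genes have windows that meet another Kcn window and share peaks with it.

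The TFs differed in where their peaks lay. Of the Runx3_RBS peaks at Kcn genes, 48 of 114 (42.1%, 33.4 to 51.3) were in a promoter of any gene, taken as a midpoint within 1 kb of a TSS, as were 41.8% of all Runx3_RBS peaks in the genome. Promoters held 12.3% of the Brn3a_BRNF peaks (8.75 to 17.0) and 13.0% of the Isl1_LHXF peaks (8.07 to 20.4), against 8.43% and 7.89% genome-wide. Kcn gene bodies held 61.1% of the Brn3a_BRNF peaks, 53.9% of the Isl1_LHXF peaks and 40.4% of the Runx3_RBS peaks. Another 26 Runx3_RBS peaks (22.8%) lay inside a neighbouring protein-coding gene, and which gene a peak acts on is not known from its position. Kcn gene bodies carried 14.3 Brn3a_BRNF peaks per Mb (12.1 to 16.8) and their flanks 10.7 (8.64 to 13.1), while ATAC was at 24.4 per Mb in bodies (21.4 to 27.5) and 49.7 in flanks (45.1 to 54.5). Over the bodies of all genes, not matched for length, the rates were 10.6 for Brn3a_BRNF and 33.3 for ATAC. H3K27Ac was at 12.1 per Mb in Kcn bodies (10.1 to 14.4) against 21.5. For ATAC and H3K27Ac the Kcn bodies thus lay below, unlike the whole windows.

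Many promoters of potassium channel genes were open without H3K27Ac. An own promoter is taken as the 1 kb on either side of any TSS of the gene, internal ones included. An ATAC peak overlapped it at 70 of 94 Kcn genes (74.5%, 64.8 to 82.2), against 65.1% of all genes, and an H3K27Ac peak at 44 (46.8%, 37.0 to 56.8), against 58.9%. ATAC without H3K27Ac was found at 28 genes (29.8%, 21.5 to 39.7), against 7.37% of all genes. Of the open promoters, 40.0% (29.3 to 51.7) at Kcn genes and 11.3% over all genes lacked H3K27Ac. Both marks were found at 42 promoters (44.7%, against 57.7%) and neither at 22 (23.4%, against 33.7%). The trait was not limited to Kcn genes. A list of 20 other genes was counted too, whose products carry potassium or mixed cation currents or bind potassium channels. Of their 17 open promoters, 9 (52.9%, 31.0 to 73.8) also lacked H3K27Ac.

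**Figure D1:**
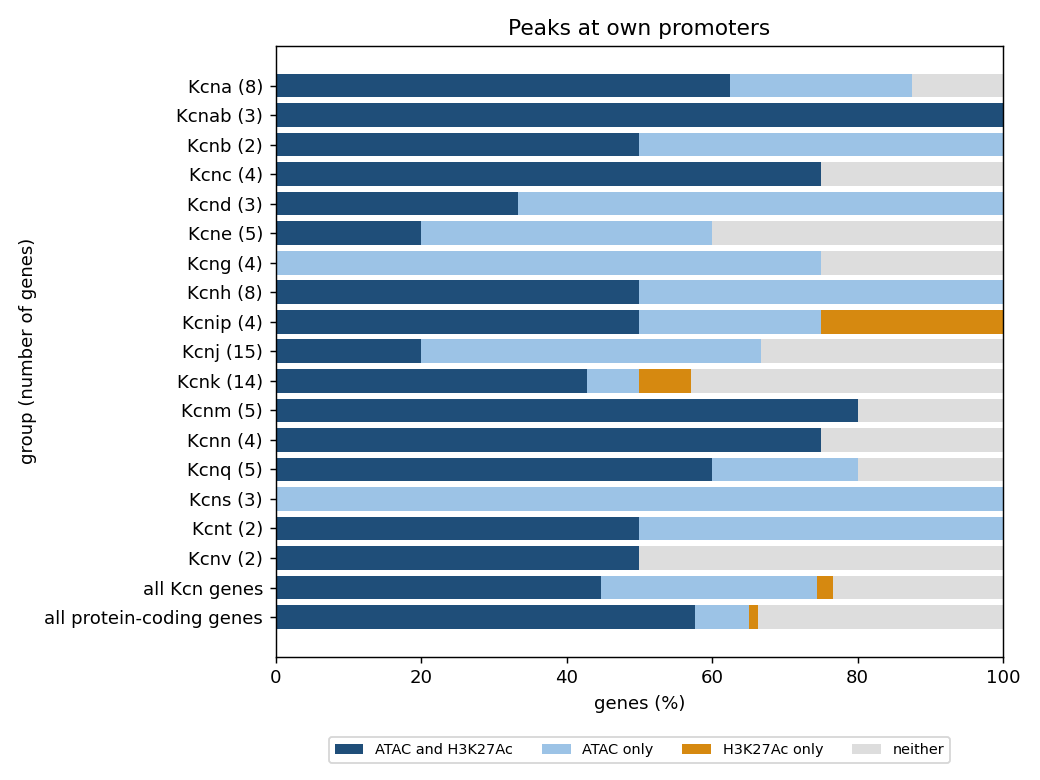
Share of genes (x axis, %) whose own promoter, within 1 kb of a TSS, overlapped an ATAC and an H3K27Ac peak, ATAC only, H3K27Ac only or neither, for subfamilies with at least 2 genes (number of genes in brackets), all Kcn genes and all protein-coding genes. ATAC only made up 29.8% of Kcn genes and 7.37% of all genes.

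Subfamilies divided differently between these classes. Among the inward rectifiers (Kcnj), which hold the membrane near its resting potential, 7 of 15 promoters had ATAC only and 3 had both marks. The electrically silent subunits, which modify Kv2 channels and form no channel alone, were split. ATAC only was found at 3 of 4 Kcng and 3 of 3 Kcns promoters and at none of Kcnf and Kcnv, while both marks were found at the single Kcnf gene and at 1 of 2 Kcnv genes. In Kcnh, the EAG, ERG and ELK channels, 4 of 8 had both marks and 4 ATAC only. Both marks were found at 4 of 5 Kcnm genes, which encode the BK channel and its beta subunits, 3 of 3 Kcnab genes, whose products are beta subunits of Kv1, 5 of 8 Kcna genes and 3 of 4 genes each of Kcnc and Kcnn. The Kcnk genes had both marks at 6 of 14 and neither at 6. These groups are small, and no test was made between them.

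Runx3_RBS peaks overlapped the own promoter of 12 Kcn genes (12.8%), against 18.1% of all genes. Among these were *Kcna1*, *Kcna2*, *Kcna6*, *Kcnab2*, *Kcnf1*, *Kcnh2*, *Kcnip3*, *Kcnk5*, *Kcnk10*, *Kcnma1* and *Kcnt2*. All 12 genes had ATAC and H3K27Ac at a TSS of their own, not always the TSS with the Runx3_RBS peak. The Runx3_RBS peak near a TSS had neither mark at *Kcnma1* (459 kb into the gene), no ATAC at *Kcna6* and *Kcnab2*, and no H3K27Ac at *Kcnip3*. At the other genes named, such a peak had both marks. Over all genes, counted by gene in the same way, 97.6% of promoters with Runx3_RBS had H3K27Ac. Brn3a_BRNF lay at 6 own promoters (6.38% against 6.68%), those of *Kcnab2*, *Kcnc1*, *Kcnma1*, *Kcnmb1*, *Kcnn3* and *Kcnt2*. Isl1_LHXF lay at 3 (3.19% against 2.99%), those of *Kcnab2*, *Kcnn3* and *Kcnt2*. Each of the 3 TFs thus had a peak at an own promoter of *Kcnab2* and of *Kcnt2*, the second of which encodes a sodium-activated channel. At *Kcnab2* these were different places. Its Runx3_RBS peak, 47.2 kb into the gene, overlapped Isl1_LHXF, while the Brn3a_BRNF peaks lay at 59.1 and 66.6 kb.

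Of the 11 subfamilies compared, Kcna had the highest rate per Mb for each TF. Its 8 genes, which encode the pore subunits of Kv1, covered 0.775 Mb and held 16.8 Runx3_RBS peaks per Mb (8.94 to 28.7), 24.5 Brn3a_BRNF peaks (14.8 to 38.3) and 12.9 Isl1_LHXF peaks (6.19 to 23.7). All 3 intervals lay above the rates over all genes, 4.88, 9.39 and 4.80. Kcnk, the two-pore channels, stood above for Runx3_RBS and for Isl1_LHXF, with 18 peaks and 8.62 per Mb (5.11 to 13.6) of each. Kcnm stood above for Brn3a_BRNF, with 33 peaks and 20.5 per Mb (14.1 to 28.8). Kcnd, the Kv4 channels, was only just above for Brn3a_BRNF, at 16.2 per Mb (9.41 to 25.9). For these 3 TFs no interval lay below the all-gene rate. That rate is not matched for window length. The Kcnd interval took in 13.4 per Mb, the Brn3a_BRNF rate of all genes over 300 kb. That of Kcnk took in 5.98, the Runx3_RBS rate of all genes under 150 kb. Kcnm cleared 13.4, Kcna cleared the rates under 150 kb for each TF, and Kcnk did so for Isl1_LHXF. Set against the rate of the other Kcn windows, Kcnk was no longer above for either TF nor Kcnd for Brn3a_BRNF, and with flanks of 100 kb no subfamily was above for Isl1_LHXF. The fewest peaks were at Kcnt, with 1.61 Runx3_RBS peaks per Mb (0.0408 to 8.98), and at Kcnc, with 1.48 Isl1_LHXF peaks (0.0376 to 8.27), and both intervals overlapped the all-gene rate. The subfamilies were not tested against each other.

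**Figure D2:**
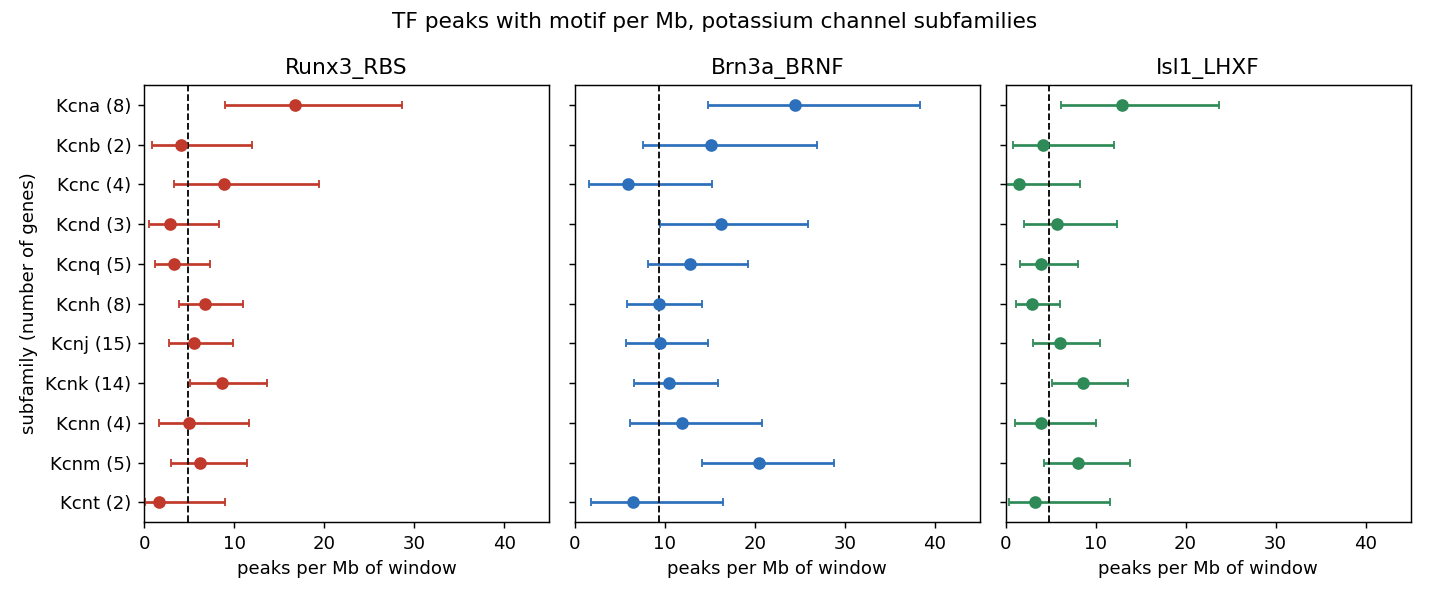
Peaks with motif per Mb of merged window (x axis) of Runx3_RBS, Brn3a_BRNF and Isl1_LHXF for the 11 subfamilies (number of genes in brackets), with exact 95% Poisson intervals as bars and the rate over all protein-coding genes as a dashed line. Kcna lay above the line in all 3 panels, Kcnk for Runx3_RBS and Isl1_LHXF, and Kcnm for Brn3a_BRNF.

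Outside these 11, the Kcnip genes, which encode calcium-binding auxiliary subunits of Kv4 channels, held 36 Brn3a_BRNF peaks, 18.1 per Mb (12.7 to 25.1), and 18 Isl1_LHXF peaks, 9.05 per Mb (5.36 to 14.3). Of these, 32 and 15 lay in the gene bodies. The silent subunits of Kcng had 7 Isl1_LHXF peaks, 12.7 per Mb (5.13 to 26.3), and none of the 7 had ATAC or H3K27Ac. H3K27Ac was at 10.1 per Mb (6.14 to 15.5) at the Kcnip genes, below the 17.8 over all genes, a rate not matched for window length. The windows of *Kcnip1* and *Kcnip4* are over 300 kb, and this interval took in the H3K27Ac rate of all genes of that class. The Kcnip intervals for Brn3a_BRNF and Isl1_LHXF also took in the rates of that class. In Kcnk, only 4 of 18 Runx3_RBS peaks lay in a Kcnk gene body, 6 in other genes and 8 between genes. With gene bodies only, the subfamilies of the 11 above the all-gene rate were Kcna for Runx3_RBS and Kcnm for Brn3a_BRNF and for Isl1_LHXF.

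A cluster of 3 genes held 14 of the 19 Brn3a_BRNF and 10 of the 10 Isl1_LHXF peaks of Kcna, and 6 of its 13 Runx3_RBS peaks. *Kcna1*, *Kcna5* and *Kcna6* lie on chromosome 6 and encode Kv1.1, Kv1.5 and Kv1.6, and their windows (303 kb) held 6 Runx3_RBS, 14 Brn3a_BRNF and 10 Isl1_LHXF peaks. That equals 19.8 per Mb (7.26 to 43.1), 46.2 (25.2 to 77.5) and 33.0 (15.8 to 60.7). The cluster of *Kcna2*, *Kcna3* and *Kcna10* on chromosome 3 (260 kb) held 2, 4 and 0, and *Kcna4* held 1, 1 and 0. *Kcna7* held 4 Runx3_RBS peaks and none of the others, with 8 other protein-coding genes in its window. Of those 4 peaks, 3 lay inside other genes. Without the chromosome 6 cluster, the remaining Kcna genes had 7 Runx3_RBS peaks, 4 of them those at *Kcna7*, or 14.8 per Mb (5.97 to 30.6). This interval lay above the all-gene rate of 4.88 but took in 5.98, the rate of all genes under 150 kb. The Brn3a_BRNF rate of the remaining genes was 10.6 (3.44 to 24.7) and their Isl1_LHXF count 0, which allows up to 7.82 per Mb.

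*Kcna1* (chromosome 6, 126640397 to 126646384, minus strand) had 3 Runx3_RBS, 6 Brn3a_BRNF and 3 Isl1_LHXF peaks. A Runx3_RBS peak in its exon, 0.529 kb from the TSS, had ATAC and H3K27Ac and no overlap with Brn3a or Isl1. The other Runx3_RBS peaks lay downstream, 16.6 and 29.2 kb from the TSS, and each overlapped Brn3a_BRNF and Isl1_LHXF. The nearer one (chr6:126629524-126629983, 460 bp, 4 RBS) had both marks and the farther one (chr6:126617037-126617250, 214 bp, 1 RBS) had neither. Their sequences are printed because both carry all 3 TFs at the same gene. They are from GRCm38.p6, plus strand, with RUNX sites in capitals on whichever strand they read. The nearer peak is shown by its central 300 bases (chr6:126629604-126629903), which hold 3 of its 4 RBS.
*Kcna1*, 29.2 kb downstream of the TSS: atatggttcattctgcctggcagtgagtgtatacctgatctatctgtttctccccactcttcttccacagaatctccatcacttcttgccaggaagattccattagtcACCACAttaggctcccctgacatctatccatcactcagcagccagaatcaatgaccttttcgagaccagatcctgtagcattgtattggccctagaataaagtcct
*Kcna1*, 16.6 kb downstream of the TSS: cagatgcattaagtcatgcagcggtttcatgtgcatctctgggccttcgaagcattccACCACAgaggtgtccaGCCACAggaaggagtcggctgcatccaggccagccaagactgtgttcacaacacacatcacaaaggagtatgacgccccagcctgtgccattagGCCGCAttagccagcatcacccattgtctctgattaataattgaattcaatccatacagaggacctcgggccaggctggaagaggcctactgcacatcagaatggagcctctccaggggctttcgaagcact

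In both *Kcna1* sequences a RUNX site runs into CATTAG, the reverse complement of the Isl1 core CTAATG, with which it shares its last 2 bases. A second CATTAG stands just before it. Counted from the first base shown, the farther site has CATTAG at 101 to 106, the RUNX site at 109 to 114 and CATTAG again at 113 to 118. The nearer site has them at 163 to 168, 169 to 174 and 173 to 178. This arrangement was looked for after both sequences had been seen. A RUNX site running into CATTAG was found in 40 of all 9601 Runx3_RBS peaks (0.417%) and in 10 stretches of the same widths 2 kb downstream (0.104%). With a further CATTAG starting and ending within 10 bases before it, it was found in those 2 *Kcna1* peaks and in no other Runx3_RBS peak. The nearer site also holds ATNATTAAT, a POU4 motif, at 201 to 209. Such matches do not show that a TF binds there.

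*Kcna6* (chromosome 6, 126708329 to 126740674, minus strand) had 3 Runx3_RBS, 6 Brn3a_BRNF and 4 Isl1_LHXF peaks, of which 2 Brn3a_BRNF peaks were shared with *Kcna1*. The Runx3_RBS peak 0.988 kb inside the gene, in a coding exon, had H3K27Ac. Sites of all 3 TFs lay 1.98 kb upstream (1 RBS, no ATAC and no H3K27Ac) and 11.9 kb upstream (chr6:126752359-126752700, 1 RBS, both marks). As at *Kcna1*, the marked site was the longer peak. The shorter one (chr6:126742579-126742736) also holds CATTAG, at 131 to 136, far from its RUNX site at 46 to 51.
*Kcna6*, 1.98 kb upstream of the TSS: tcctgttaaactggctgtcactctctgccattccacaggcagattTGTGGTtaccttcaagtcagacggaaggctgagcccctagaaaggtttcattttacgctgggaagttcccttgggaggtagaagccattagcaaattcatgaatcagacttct
*Kcna5* had 4 Brn3a_BRNF and 3 Isl1_LHXF peaks and no Runx3_RBS peak. *Kcna2*, which encodes Kv1.2, the usual partner of Kv1.1 along axons, had 1 Runx3_RBS peak in its promoter with both marks, 2 Brn3a_BRNF peaks downstream and no Isl1_LHXF peak.

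**Figure D3:**
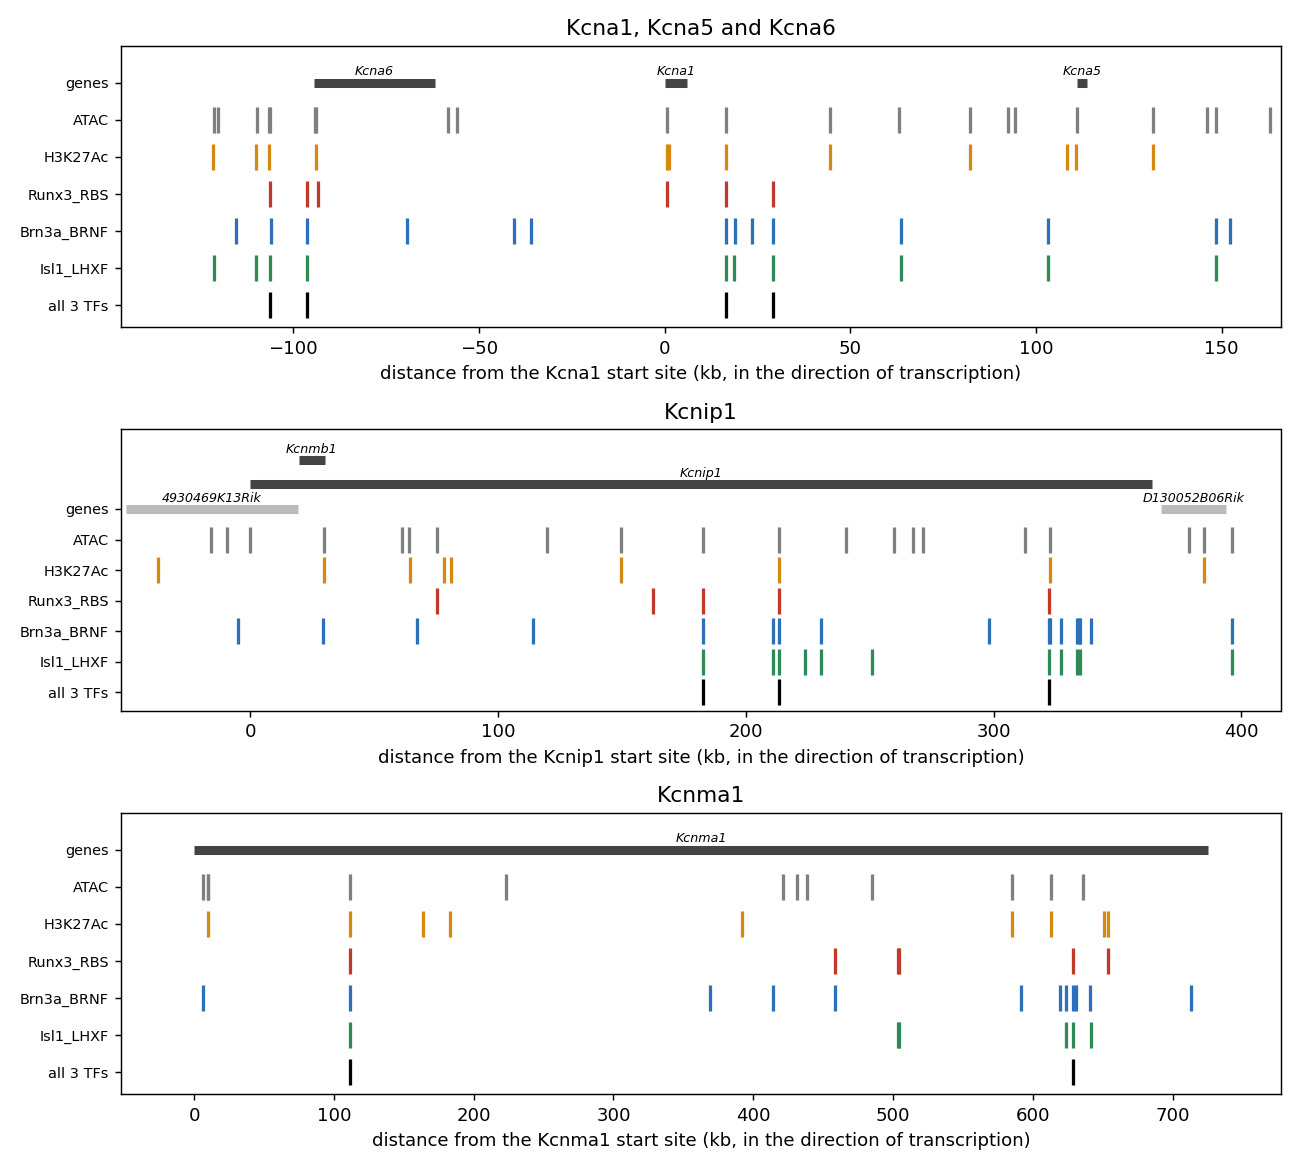
Positions of peaks by list (rows) in the windows of the *Kcna1*, *Kcna5* and *Kcna6* cluster, *Kcnip1* and *Kcnma1*, against distance from the named start site (kb), with Kcn genes in dark grey and other protein-coding genes in light grey. Black ticks mark the Runx3_RBS peaks that overlap Brn3a_BRNF and Isl1_LHXF, 4 in the Kcna cluster, 3 in *Kcnip1* and 2 in *Kcnma1*.

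*Kcnip1* had the most TF peaks of all 94 genes. It encodes KChIP1, which raises the surface level of Kv4 channels. Its window (464 kb, chromosome 11) held 5 Runx3_RBS, 17 Brn3a_BRNF and 11 Isl1_LHXF peaks, of which 5, 15 and 10 were in introns. ATAC overlapped 4 of the 5, 5 of the 17 and 4 of the 11. All 3 TFs met at 3 intronic sites, 183, 213 and 322 kb from the TSS, and ATAC marked each of them. H3K27Ac marked the last 2. *Kcnmb1* lies within *Kcnip1* and shares peaks with it. *Kcnip4* had as many Brn3a_BRNF peaks, 17 in 1235 kb, with 2 Runx3_RBS and 4 Isl1_LHXF peaks. *Kcnip3* (166 kb) had 3, 2 and 2, with 1 intronic site of all 3 TFs 37.5 kb from the TSS that had both marks.

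*Kcnma1*, the pore subunit of BK channels, which open with calcium and voltage, had 6 Runx3_RBS, 12 Brn3a_BRNF and 6 Isl1_LHXF peaks in 825 kb, and every one was in an intron. Only 1 of the 6, 2 of the 12 and 1 of the 6 overlapped ATAC. The site of all 3 TFs 112 kb from the TSS (chr14:23902507-23902944, 3 RBS) had ATAC and H3K27Ac, and the one at 629 kb (2 RBS) had neither. *Kcnmb2*, a beta subunit of BK channels, had 1, 13 and 7 peaks in 398 kb. Without *Kcnmb2*, Kcnm held 16.5 Brn3a_BRNF peaks per Mb (10.1 to 25.5), and without *Kcnma1* 26.8 (16.6 to 40.9). Both intervals lay above the all-gene rate of 9.39. The one without *Kcnmb2* took in 13.4, the rate of all genes over 300 kb. A single site of all 3 TFs at *Kcnmb2*, 52.1 kb into the gene and within 1 kb of an annotated TSS, had ATAC and no H3K27Ac (chr3:31954507-31954777).
*Kcnmb2*, intron: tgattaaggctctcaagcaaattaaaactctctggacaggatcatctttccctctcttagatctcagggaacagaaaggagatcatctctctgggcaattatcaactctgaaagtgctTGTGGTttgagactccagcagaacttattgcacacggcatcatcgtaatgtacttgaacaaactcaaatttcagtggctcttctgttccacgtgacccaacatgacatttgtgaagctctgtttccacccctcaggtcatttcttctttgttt

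Of the Kv7 genes, *Kcnq5* had 1 Runx3_RBS, 11 Brn3a_BRNF and 4 Isl1_LHXF peaks, all in introns, with ATAC at 1, 3 and 3. Its site of all 3 TFs lay 501 kb from the TSS and had ATAC without H3K27Ac. *Kcnq3*, a subunit of the M-channel, had 0, 8 and 2, with ATAC at 4 of 8 and 2 of 2. *Kcnq1*, known from the heart and the inner ear, had 5 Runx3_RBS peaks, 4 of them with ATAC, and 0 Brn3a_BRNF and 0 Isl1_LHXF peaks in 421 kb. Its window held 17 H3K27Ac peaks, more than any other Kcn gene, and its own promoter had neither mark.

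*Kcnn3*, an SK channel of the afterhyperpolarization, had 1, 10 and 3 peaks of Runx3_RBS, Brn3a_BRNF and Isl1_LHXF in 255 kb. Its intronic site of all 3 TFs, 61.7 kb from the TSS, had H3K27Ac and no ATAC (chr3:89581721-89581963). *Kcnn1*, another SK channel, had 4 Runx3_RBS peaks, none in the gene body and all with both marks, and no peak of the others. In Kcnc, *Kcnc1* had 1 Brn3a_BRNF peak, in an intron near an internal TSS 25.9 kb into the gene. *Kcnc2* had 1 of each, meeting at 1 intronic site 110 kb from the TSS with neither mark (chr10:112380754-112380944). The sequences of the *Kcnn3* and *Kcnc2* sites complete the set of peaks up to 300 bp that carry all 3 TFs.
*Kcnn3*, intron: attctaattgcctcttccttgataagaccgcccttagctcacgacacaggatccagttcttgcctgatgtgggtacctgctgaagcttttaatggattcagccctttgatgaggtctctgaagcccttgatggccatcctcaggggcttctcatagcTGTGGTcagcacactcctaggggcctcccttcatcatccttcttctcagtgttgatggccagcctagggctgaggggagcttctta
*Kcnc2*, intron: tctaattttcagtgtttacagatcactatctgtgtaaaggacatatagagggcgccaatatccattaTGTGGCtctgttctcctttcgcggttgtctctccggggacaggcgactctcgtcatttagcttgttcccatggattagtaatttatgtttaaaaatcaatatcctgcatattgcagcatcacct

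**Figure D4:**
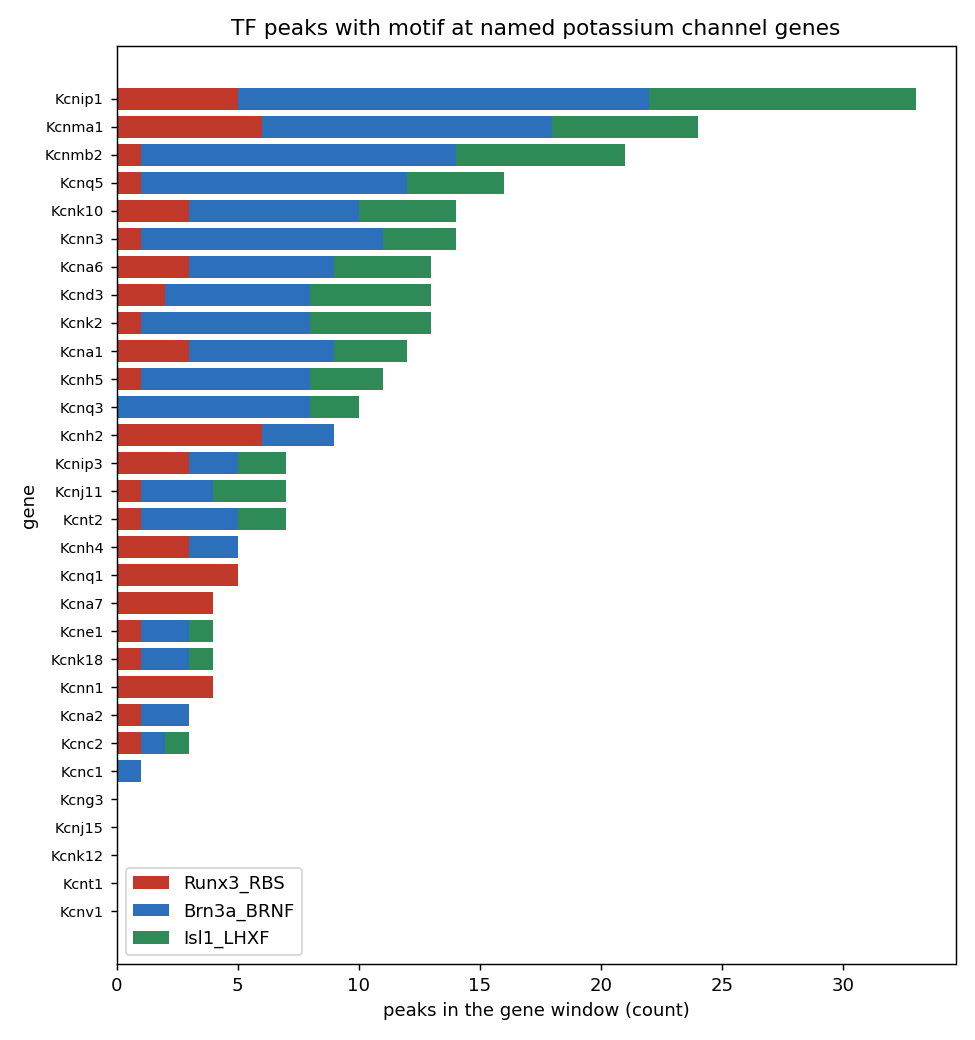
Number of Runx3_RBS, Brn3a_BRNF and Isl1_LHXF peaks (stacked bars, x axis) in the window of each of 30 named Kcn genes. *Kcnip1* had 5, 17 and 11 peaks and *Kcnma1* 6, 12 and 6, while *Kcnq1*, *Kcna7* and *Kcnn1* had Runx3_RBS peaks only.

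*Kcnh2*, the ERG channel, had 6 Runx3_RBS peaks, as many as *Kcnma1* and in a window of 132 kb. ATAC overlapped all 6. Introns held 3 of them, and the other 3 lay 32.0, 42.0 and 43.1 kb upstream, at promoters of other genes. *Kcnh2* had 3 Brn3a_BRNF peaks and no Isl1_LHXF peak. *Kcnh4* had 3 Runx3_RBS peaks, all within neighbouring genes and none with ATAC. *Kcnh5* had 1, 7 and 3 peaks, all in introns, and its Runx3_RBS peak, 6.16 kb from the TSS, held 5 RBS and had ATAC. *Kcnd3* (Kv4.3) had 2, 6 and 5, and a Brn3a_BRNF peak that overlapped Isl1_LHXF 31.6 kb into the gene had both marks.

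Among two-pore channels, *Kcnk10* (TREK-2) had 3 Runx3_RBS, 7 Brn3a_BRNF and 4 Isl1_LHXF peaks, with ATAC at 2, 4 and 3. *Kcnk2* (TREK-1, opened by stretch) had 1, 7 and 5, and none of the 13 had ATAC or H3K27Ac, although its own promoter had both. Both genes are of similar length, with windows of 249 and 294 kb, and held 13 and 3 ATAC peaks. All 3 TFs met at *Kcnk10* at 77.0 kb (2 RBS, both marks) and at 41.4 kb (1 RBS, neither mark). *Kcnk18* (TRESK), a channel of sensory neurons, had 1, 2 and 1 peaks, all downstream, 40.1 to 41.6 kb from the TSS.

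*Kcnj11*, which encodes Kir6.2 of the ATP-sensitive channel, had 1 Runx3_RBS, 3 Brn3a_BRNF and 3 Isl1_LHXF peaks, and all 7 lay in the neighbouring gene *Abcc8*. *Abcc8* encodes SUR1, the regulatory subunit of the same channel. All 3 TFs met 27.5 kb upstream of *Kcnj11* (chr7:46128121-46128459, 3 RBS), with ATAC and H3K27Ac. Its central 300 bases (chr7:46128141-46128440) show 1 of the 3 RBS and CTAATG at 160 to 165.
*Kcnj11*, in *Abcc8*: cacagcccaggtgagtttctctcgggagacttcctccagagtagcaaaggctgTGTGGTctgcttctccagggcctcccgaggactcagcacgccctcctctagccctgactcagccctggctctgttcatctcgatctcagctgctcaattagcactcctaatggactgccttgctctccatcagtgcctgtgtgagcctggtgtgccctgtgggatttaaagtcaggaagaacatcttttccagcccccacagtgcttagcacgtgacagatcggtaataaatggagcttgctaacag
*Kcne1* had 1 site of all 3 TFs, in a promoter inside *Rcan1* 40.8 kb upstream, and *Kcnt2* had 1 in its own promoter, 0.366 kb upstream, both with ATAC and H3K27Ac.

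The Runx3_RBS peak with the most RBS was at *Kcnj6*, which encodes Kir3.2. It was 828 bp wide, lay 299 kb from the TSS and downstream of the gene, and held 35 RBS, where the next highest count at a Kcn gene was 5. Of the 34 distances between neighbouring RBS, 18 were 29 bp, so the sites were regularly spaced in part. Whether the peak lies in repeated sequence was not tested. The peak had H3K27Ac and no ATAC, Brn3a_BRNF or Isl1_LHXF.

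No TF peak with motif was found at *Kcne4*, *Kcng3*, *Kcnj8*, *Kcnj13*, *Kcnj15*, *Kcnk12*, *Kcnrg*, *Kcns2*, *Kcnt1* and *Kcnv1*. The longest of these windows were those of *Kcnt1* (155 kb, 2 ATAC and 0 H3K27Ac peaks), *Kcnk12* (152 kb, 8 and 2), *Kcng3* (146 kb, 5 and 1), *Kcnj15* (143 kb, 2 and 0) and *Kcnv1* (109 kb, 1 and 1). *Kcnt1* and *Kcnt2* encode related channels and differed, since *Kcnt2* had 1, 4 and 2 peaks.

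Sites of all 3 TFs, meaning Runx3_RBS peaks that overlap a Brn3a_BRNF and an Isl1_LHXF peak, occurred at 13 Kcn genes (13.8%, 8.26 to 22.2), against 7.07% of all genes. There were 19 sites, 12 in Kcn gene bodies, 3 in promoters, 13 with ATAC and 11 with H3K27Ac, and 5 had neither. Of all 1594 such sites in the genome, 75.7% had ATAC and 27.7% had H3K27Ac, against 68.4% and 57.9% of the 19. Of the 114 Runx3_RBS peaks at Kcn genes, 78 (68.4%) met neither of the other TFs, as did 63.8% of all. Brn3a_BRNF peaks stood alone in 172 of 244 cases (70.5%, against 66.6% of all), and 125 of those 172 (72.7%, against 74.3% of all) had neither ATAC nor H3K27Ac.

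Motifs were searched on both strands: RUNX as the 4 RBS hexamers, POU4 as ATNATTAAT, Isl1 as CTAATG and LHX as TAATTA. In the 5111 Runx3_RBS peaks of up to 300 bp, CTAATG occurred in 12.2%, against 7.57% of stretches of the same widths 2 kb downstream. ATNATTAAT occurred in 1.66% against 1.06%, TAATTA in 5.13% against 6.18%, and RUNX, which chose the peaks, in 30.3% of the stretches. TAATTA was in none of the printed sequences. The share of peaks with their own motif at Kcn genes was 74.0% for Runx3 (66.6 to 80.3), 72.0% for Brn3a (67.0 to 76.5) and 68.9% for Isl1 (61.5 to 75.4), close to the 71.4%, 72.1% and 71.4% of the whole lists.

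Overlaps between lists within the Kcn windows were put to Fisher's exact test (two-sided), and p was adjusted over the 4 tests (Benjamini-Hochberg). Peaks are the units, some of them neighbours in 1 window, so each p describes the lists and not embryos. Brn3a_BRNF peaks had ATAC more often with Isl1_LHXF (31 of 64, 48.4%) than without it (47 of 180, 26.1%), with an odds ratio of 2.65 (1.40 to 5.01, adjusted p = 0.00221 in Fisher's exact test). Genome-wide the shares were 58.5% and 26.4%. ATAC peaks had H3K27Ac more often with a Runx3 peak, with or without RBS (92 of 118, 78.0%), than without one (214 of 577, 37.1%), with an odds ratio of 5.99 (3.70 to 9.97, adjusted p = 9.1e-16, Fisher's exact test). Genome-wide the shares were 75.9% and 40.2%. ATAC peaks at promoters and elsewhere were pooled here, and the part of promoter location in this difference was not tested.

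Runx3_RBS peaks had ATAC more often in promoters (45 of 48, 93.8%) than in introns/intergenic regions (34 of 66, 51.5%), with an odds ratio of 13.8 (3.84 to 76.3, adjusted p = 1.0e-06, Fisher's exact test). Within Kcn gene bodies alone this call was lost, with 76.9% against 57.6% and an odds ratio of 2.41 (adjusted p = 0.420, Fisher's exact test). Genome-wide the shares were 94.2% and 56.6%. Among the Runx3_RBS peaks in introns/intergenic regions, 10 of 19 with Brn3a_BRNF (52.6%) and 24 of 47 without (51.1%) had ATAC. The odds ratio was 1.06 (0.321 to 3.56, adjusted p = 1.00, Fisher's exact test), an interval that leaves room for a difference of either sign, and the genome-wide shares were 68.1% and 48.1%.

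**Figure D5:**
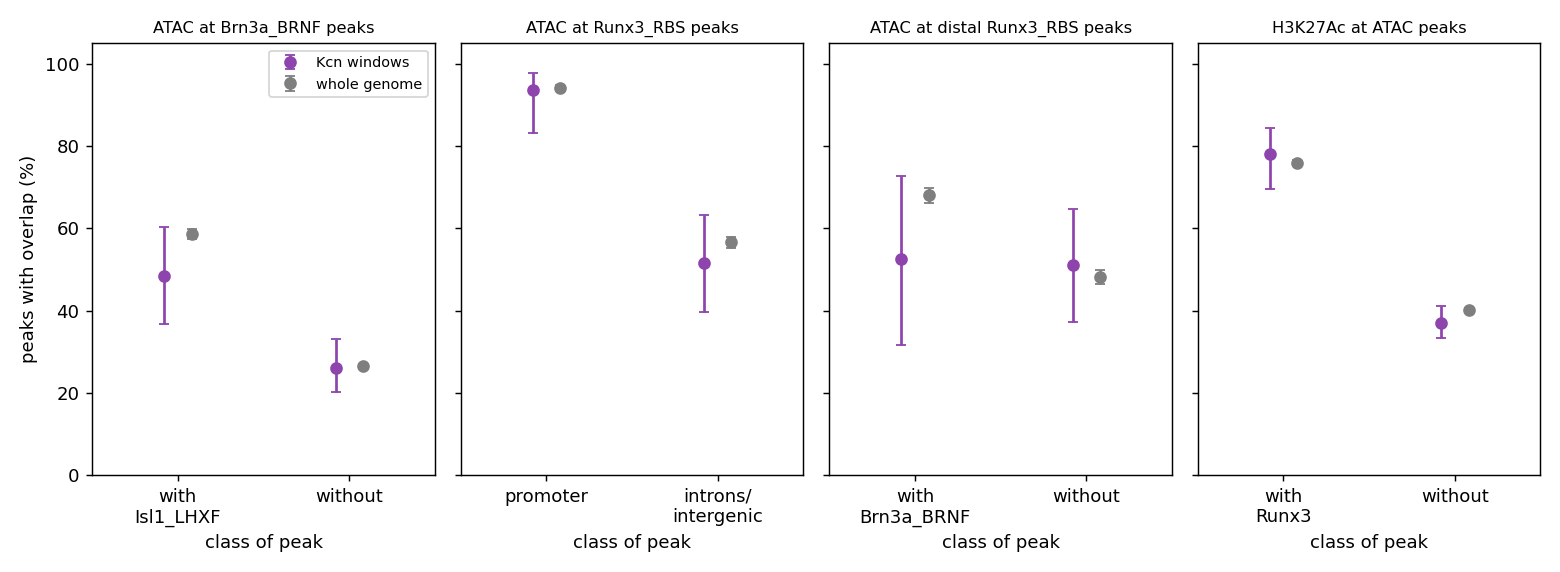
Share of peaks with overlap (y axis, %, with 95% Wilson intervals) in the 4 tested pairs of peak classes, for the Kcn windows and the whole genome. In Kcn windows ATAC marked 48.4% of Brn3a_BRNF peaks with and 26.1% without Isl1_LHXF, and 93.8% of promoter and 51.5% of other Runx3_RBS peaks.

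A list of 20 other genes whose products carry potassium or mixed cation currents or bind potassium channels was counted beside the Kcn genes. Runx3_RBS peaks were found at 16 of the 20, Brn3a_BRNF at 13 and Isl1_LHXF at 12, with 4.56, 12.5 and 5.74 peaks per Mb over 7.67 Mb. Over all protein-coding genes, 52.3%, 48.2% and 33.7% of windows held such a peak, at 4.88, 9.39 and 4.80 per Mb. These values are not matched for window length, and the longest window of the list was 2345 kb. The promoters of the 20 genes had ATAC at 17 and H3K27Ac at 9, against 65.1% and 58.9% of all genes. Of genes whose products bind Kv1 channels or their complexes, *Cntn2* had 5 Runx3_RBS, 7 Brn3a_BRNF and 6 Isl1_LHXF peaks in 134 kb, *Cntnap2* 5, 27 and 8 in 2345 kb, *Dlg4* 3, 2 and 0 in 131 kb and *Lgi1* 2, 3 and 2 in 148 kb. *Cntn2* and *Cntnap2* each had 2 sites of all 3 TFs. *Dpp6* and *Dpp10*, auxiliary subunits of Kv4, had 2, 10 and 4 and 2, 9 and 3. Of the HCN channels, *Hcn2* had 2, 0 and 0, *Hcn3* 2, 3 and 2 and *Hcn4* 1, 1 and 1. No Runx3_RBS, Brn3a_BRNF or Isl1_LHXF peak was found at *Abcc9*, *Lrrc52*, *Lrrc55* and *Tmem175*.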

How the data were processed

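The deposited files are consensus peak lists made by the authors on mm10. Reads were trimmed with Cutadapt, aligned with Bowtie2, freed of PCR duplicates with Picard 1.119 (ATAC) and used for peak calling with MACS2, against normal rabbit serum in CUT&RUN. A consensus peak was present in 2 of 3 ATAC, 3 of 5 H3K27Ac, 4 of 8 Runx3, 2 of 2 Brn3a and 2 of 3 Isl1 samples, so lists differ in stringency and their sizes are not comparable. Peaks largely in repeats or blacklisted were removed, which lowers counts in such regions. No score, count or value per sample was deposited, and a deposited motif column gives the number of RBS (Runx3) or marks V$BRNF (Brn3a) and V$LHXF (Isl1).

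Starts were read as 1-based. The RBS counted in GRCm38.p6, which shares chromosome coordinates with mm10, then equalled the deposited number in all 13443 Runx3 peaks. Genes and TSS came from GENCODE M21 and sequences from the RefSeq assembly. For overlaps (1 bp), short peaks were extended around their midpoint, to 500 bp in ATAC and to 300 bp in the other lists. Own promoters used unwidened peaks within 1 kb of any TSS of the gene. Distances are from the TSS at the 5′ end of the gene. Kcnab was kept apart from Kcna, and Kcnm joins Kcnma1 and the Kcnmb genes. Windows were merged before rates were computed, and a subfamily was placed above or below when its exact Poisson interval cleared the rate over all genes.

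Genes were named by rule: the gene with the most TF peaks in each of the 11 subfamilies, the 10 with the most Runx3_RBS peaks, all with a site of 3 TFs, a fixed set of channels (among them Kcna1, Kcna2, Kcnc1, Kcnq3, Kcnk2 and Kcnk18) and the 5 longest windows with no TF peak. Kcna5, Kcna7 within its subfamily, Kcnip4, Kcnmb1 and Kcnj6, genes listed by promoter class, the Kcnj11 sequence and the longer Kcna1 sequence were added after their values were seen. Members and lists were chosen with earlier results of these data known. Alternatives covered window limits, gene assignment, motif, promoter width and overlap. A few genes are not reported here by name and stay in the counts. The code was tested on simulated intervals. Intervals and tests came from scipy 1.17.1 and statsmodels 0.14.6, tables from pandas 2.3.3 and numpy 2.4.6, genome sequence from pysam 0.24.0 and plots from matplotlib 3.10.9, in Python 3.11.15.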

Additional observations from a re-analysis of the deposited data

How the results depend on the processing

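With gene bodies only, genes with a peak fell to 52 for H3K27Ac, 28 for Runx3_RBS, 36 for Brn3a_BRNF and 26 for Isl1_LHXF, rates per Mb went to 24.4 for ATAC, 12.1 for H3K27Ac, 4.43 for Runx3_RBS and 14.3 for Brn3a_BRNF, sites of all 3 TFs to 8 genes, and the promoter test of Runx3_RBS to an odds ratio of 2.41. Over the bodies of all genes, the rates were 33.3 for ATAC, 21.5 for H3K27Ac, 4.63 for Runx3_RBS and 10.6 for Brn3a_BRNF. With gene bodies, subfamilies above the all-gene rate were 1 each for Runx3_RBS, Brn3a_BRNF and Isl1_LHXF. With windows ending at the neighbouring gene, rates were 29.6 for ATAC, 12.9 for H3K27Ac and 4.59 for Runx3_RBS. With nearest TSS, Runx3_RBS was at 36 genes. With at least 2 RBS it was at 33 genes and 2.75 per Mb. Counting peaks with or without the motif gave 7.98, 17.6 and 8.66 per Mb for Runx3, Brn3a and Isl1, against 6.89, 13.9 and 6.94 over all genes. All-gene values are not given for nearest TSS, at least 2 RBS, windows ending at the neighbouring gene or flanks of 100 kb. For gene bodies, all-gene rates are given but no shares. Such counts do not show whether the difference from all genes holds under these definitions. With flanks of 100 kb, Brn3a_BRNF was at 10.7 per Mb, 4 subfamilies lay above for Runx3_RBS and 0 for Isl1_LHXF, and the odds ratio of ATAC at distal Runx3_RBS peaks with Brn3a_BRNF was 0.836, on the other side of 1 (adjusted p = 0.812, Fisher's exact test). Against the other Kcn windows, 1 subfamily lay above for Runx3_RBS and 1 for Isl1_LHXF, and 1 below for Isl1_LHXF. Without the Kcna1, Kcna5 and Kcna6 windows, an alternative chosen after seeing the data, 1 lay above for Isl1_LHXF. The causes were not tested beyond the smaller number of peaks that gene bodies and the RBS minimum leave by construction. The other 85 values stayed within 1.5 times the count reported, within the counting interval of the rate reported or, for tests, on the same side of the threshold. Such counts still ranged from 59 to 43 genes for Runx3_RBS (windows ending at the neighbouring gene), 50 to 35 for Isl1_LHXF (nearest TSS) and 13 to 19 for sites of all 3 TFs (flanks of 100 kb). They include open promoters without H3K27Ac, at 26, 26 and 27 genes under the added definitions.

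No paired analysis was possible because the lists hold no value per sample. For the same reason no replicate was left out, and depth, which limits which peaks were found, could not be assessed.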
